A study of Mus musculus with 71 samples.

Results

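The piriform cortex of C57BL/6J mice was compared between animals with a skin excision and sham animals. The comparison rests on 9 bulk RNA-seq libraries out of 71 in the series, 4 from excision and 5 from sham, all from 1 batch. Libraries were chosen by their library name and by the tissue label piriform cortex, and were grouped by the treatment label. In the excision group full-thickness skin of the back was removed with scissors over a template 12 mm across, and per the labels the wound later widened to the size of a burn made in other animals. In the sham group the skin of the back was shaved and left whole. Mice of both groups were anaesthetised with isoflurane, received buprenorphine at 0.1 mg/kg and drank paracetamol at 1 mg/mL for 5 days, so that both groups carry the effects of these drugs. The model is a skin wound, and the brain itself was not injured. A further 5 piriform libraries from burned mice entered the same fit, and so its count filter, normalisation and estimate of the spread. Their levels are given for some genes. Age, sex, the interval from wounding to dissection, and any sharing of animals between regions are not stated in the labels. P-values measure the spread between libraries, since the labels do not say that each library is a separate animal.

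The piriform cortex is the main cortical target of the olfactory bulb. It is a layered cortex of glutamatergic pyramidal cells with GABAergic interneurons, and it borders the claustrum, the endopiriform nucleus, the amygdala and the striatum, any of which can enter a dissected sample. A wound to the skin can reach the brain through sensory input, through glucocorticoid release from the adrenal gland and through circulating cytokines. Microglia, astrocytes and vascular cells are the cells known to respond to the last of these. The gene lists below follow those routes. In bulk tissue, fewer cells of a type and less RNA per cell cannot be told apart.

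Levels are given as CPM, counts scaled to a common normalised library size, and differences as log2 fold change of excision over sham with its SE. Total counts ran from 46.8 to 70.5 M over the 9 libraries. The tissue label was checked against cortical markers. Slc17a7, the vesicular glutamate transporter of cortical excitatory neurons, lay at 1490 to 1810 CPM in excision and 1480 to 1800 CPM in sham. Tbr1, a transcription factor of glutamatergic cortical neurons, lay at 108 to 150 CPM in excision and 79.4 to 135 CPM in sham. Neither gene tells piriform cortex from other cortex. Titles of all 9 libraries name the frontal cortex instead, and the title of sham replicate 2 names excision, so that its treatment rests on the treatment label alone.

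Sham replicate 1 stood apart because it held hippocampal transcripts. C1ql2, a synaptic protein of dentate granule cells, had 1.56, 1.19, 1.46 and 3.08 CPM in the excision libraries, against 101, 1.08, 2.36, 0.764 and 0.676 CPM in the sham libraries. Dsp, which encodes desmoplakin and marks the same cells, reached 38.9 CPM in sham replicate 1 and did not exceed 0.158 CPM in the other 8 libraries. In sham libraries dissected from the hippocampus, C1ql2 lay at 74.3 to 146 CPM (median 132, n = 9), scaled to total counts. The summed level of 12 granule cell markers was 244 to 296 CPM in excision, against 581 CPM in sham replicate 1 and 222 to 274 CPM in the other sham libraries. The same library was the highest of the 9 for the summed lists of choroid plexus (417 CPM), myelin (6551 CPM), red blood cells (1763 CPM), meninges (713 CPM), endothelium (253 CPM) and reactive astrocytes (139 CPM), among others. Whether these transcripts came from the dissected tissue or from a mixed or exchanged library was not tested.

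Striatal markers differed between libraries in a way that crossed the groups. The summed level of 14 striatal markers was 832, 343, 1203 and 323 CPM in excision, against 259, 337, 2371, 321 and 271 CPM in sham. Adora2a, the adenosine receptor of striatopallidal neurons, had 35.1, 1.95, 59.9 and 1.78 CPM in excision, against 2.82, 4.1, 125, 3.26 and 3.3 CPM in sham. Excision replicates 1 and 3 and sham replicate 3 thus held more striatal RNA than the other 6 libraries. The counts of called genes are given below with all 9 libraries and without sham replicate 1, and so are lists and single genes where stated.

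**Figure D1:**
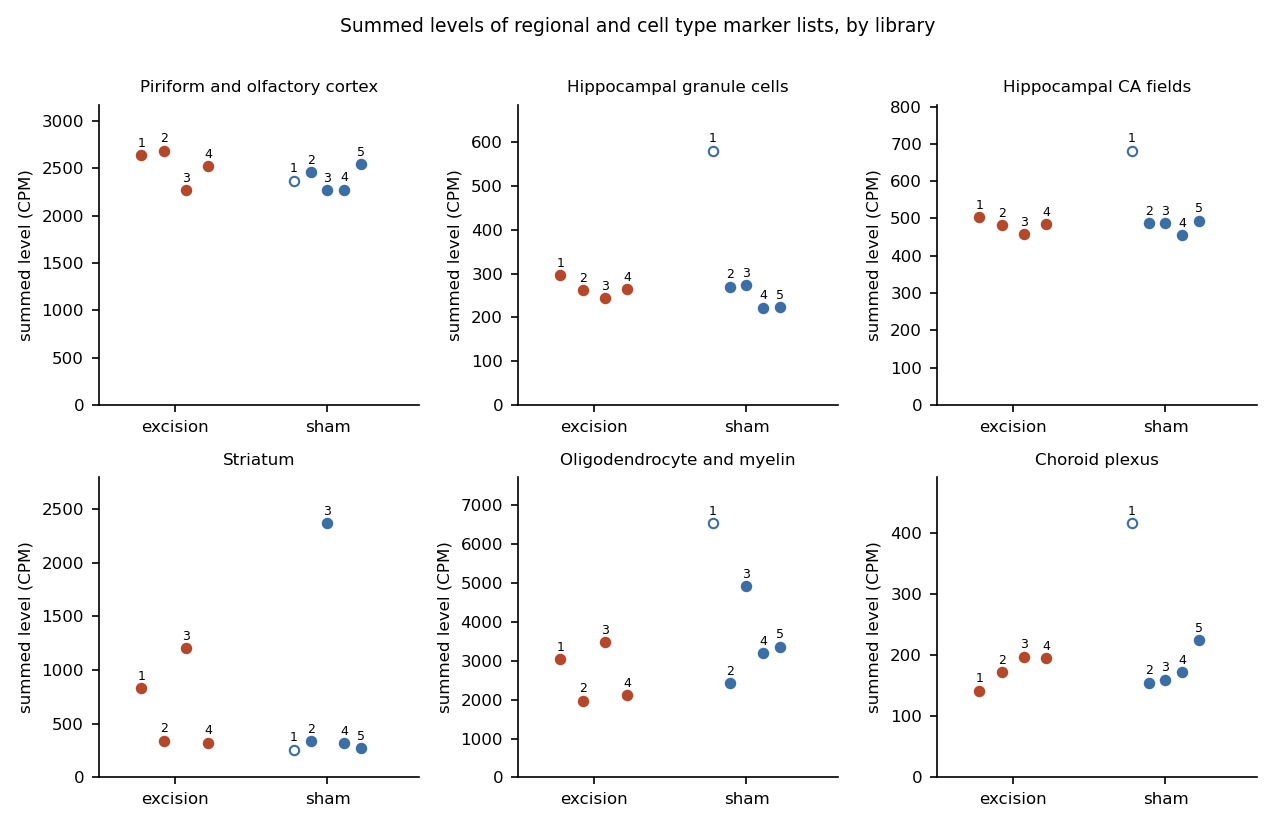
Summed CPM of 6 marker lists in the 4 excision and 5 sham libraries, with replicate numbers beside the points and sham replicate 1 as an open circle. Sham replicate 1 lies above all others for hippocampal granule cells (581 CPM), CA fields (682 CPM), myelin (6551 CPM) and choroid plexus (417 CPM), and sham replicate 3 for the striatum (2371 CPM).

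No gene was called as changed after excision. With edgeR's quasi-likelihood test, 0 of 21004 genes (0%) passed a Benjamini-Hochberg adjusted p of 0.05, and the smallest adjusted p was 0.915. An unadjusted p under 0.05 was reached by 1102 genes (5.25%), of which 469 were higher (2.23%) and 633 lower (3.01%) in excision. Without sham replicate 1, 0 of 20957 genes were called (0%), the smallest adjusted p was 0.855, and 1215 genes (5.80%) had an unadjusted p under 0.05. DESeq2's Wald test called 2 genes, Pth2r and Col6a4, both at an adjusted p of 0.0301, and 1 gene, 1700048O20Rik, at 0.0212 without sham replicate 1. It was run without the count filter, and gave an unadjusted p under 0.05 to 1450 of 37101 genes (3.91%) with all libraries. Without sham replicate 1 it did so for 1579 of 36851 genes (4.28%).

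The depth and spread of these libraries still bound the size of most differences. Among 15473 genes with a mean of at least 1 CPM, the median SE was 0.132 and the median absolute log2 fold change was 0.0939. The 95% interval lay wholly within 1.5-fold in either direction for 77.3% of these genes, and within 2-fold for 95.6%. Only 31 of them had an estimate beyond 2-fold. Without sham replicate 1 the shares were 77.2% and 95.6%, with 27 estimates beyond 2-fold. Over all genes tested the median log2 fold change was -0.0195 with all libraries and -0.00497 without sham replicate 1.

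The genes of smallest p are given as values and not as changes. Col6a4, a chain of collagen VI in the extracellular matrix (GRCm38 chromosome 9, 105989454 to 106096783), had 0.65, 0.57, 1.63 and 0.941 CPM in excision, against 8.23, 5.99, 2.49, 3.44 and 4.29 CPM in sham. All 4 excision libraries lay below all 5 sham libraries, with a log2 fold change of -2.36 (SE 0.46) and an adjusted p of 0.915 in edgeR, and -2.10 (SE 0.45) without sham replicate 1. Burn libraries, fitted against the same sham libraries, held 1.78 to 7.54 CPM. Such separation of the groups in CPM was seen for 96 genes with excision higher (0.457% of those tested) and 107 with excision lower (0.509%). Without sham replicate 1 it was seen for 196 (0.933%) and 202 genes (0.962%).

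Among the genes higher in excision, Dpysl3, a cytoskeletal adaptor of growth cones (chromosome 18, 43320984 to 43438286), had 33.6, 32.7, 29.0 and 36.8 CPM in excision, against 25.1, 28.3, 26.7, 24.7 and 23.0 CPM in sham, with no overlap and a log2 fold change of 0.37 (SE 0.09), or 0.36 (SE 0.09) without sham replicate 1. Slc6a7, the proline transporter of excitatory nerve terminals (chromosome 18, 60995380 to 61014222), had 74.4, 70.9, 59.5 and 80.5 CPM in excision, against 61.9, 59.0, 52.5, 51.9 and 52.6 CPM in sham. Its groups overlapped only through sham replicate 1, and its log2 fold change was 0.36 (SE 0.09), or 0.40 (SE 0.09) without that library.

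Slc5a5, the sodium-iodide symporter best known from the thyroid, led the fit without sham replicate 1. It had 22.7, 21.5, 17.0 and 18.7 CPM in excision, against 18.5, 13.8, 15.1, 13.2 and 13.4 CPM in sham. Sham replicate 1 was again the 1 library that overlapped, and the log2 fold change was 0.43 (SE 0.12) with it and 0.53 (SE 0.11) without it. Mettl27, a predicted methyltransferase, had 9.37, 9.24, 8.39 and 10.8 CPM in excision, against 6.63, 6.86, 7.28, 6.86 and 6.30 CPM in sham, again with no overlap and a log2 fold change of 0.48 (SE 0.12), or 0.47 (SE 0.13) without sham replicate 1. Pth2r, the receptor of the neuropeptide TIP39, was low, at 1.14, 1.81, 1.00 and 1.66 CPM in excision against 0.55, 0.762, 0.473, 0.527 and 0.457 CPM in sham. It was singled out because DESeq2 called it, and its log2 fold change in edgeR was 1.33 in both fits (SE 0.26 and 0.28). The noncoding RNA 1700048O20Rik had 3.09 to 8.37 CPM in excision, against 4.95 CPM in sham replicate 1 and 1.42 to 2.69 CPM in the other sham libraries, and burn libraries held 4.08 to 7.46 CPM. Hfm1, a helicase of meiotic recombination, and Mycl, a MYC-family transcription factor, had log2 fold changes of 0.78 (SE 0.25) and 0.35 (SE 0.28), and of 0.99 (SE 0.24) and 0.75 (SE 0.18) without sham replicate 1.

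Among the genes lower in excision, Mapk12, the p38-gamma stress kinase, had 5.40, 4.44, 7.70 and 5.66 CPM in excision, against 12.0, 9.07, 6.48, 10.1 and 11.6 CPM in sham. The groups overlapped through excision replicate 3 and sham replicate 3, and the log2 fold change was -0.76 (SE 0.19), or -0.68 (SE 0.19) without sham replicate 1. Ky, a transglutaminase-like peptidase known from muscle, had 2.99, 2.25, 3.12 and 2.34 CPM in excision, against 5.85, 3.60, 4.27, 5.29 and 11.5 CPM in sham, with no overlap and a log2 fold change of -1.18 (SE 0.29), or -1.20 (SE 0.31) without sham replicate 1. Anxa11, a calcium-dependent phospholipid-binding protein, had 62.0, 60.5, 62.0 and 51.5 CPM in excision, against 102, 74.5, 60.3, 88.2 and 122 CPM in sham, and its log2 fold change was -0.60 (SE 0.15), or -0.55 (SE 0.16) without sham replicate 1.

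Mical2, an actin-oxidising monooxygenase, was the most abundant of these, at 402, 442, 468 and 363 CPM in excision against 506, 572, 431, 674 and 798 CPM in sham, with a log2 fold change of -0.51 (SE 0.14), or -0.56 (SE 0.14) without sham replicate 1. Rrp8, a ribosomal RNA methyltransferase of the nucleolus, and Zbtb40, a zinc finger protein, had log2 fold changes of -0.43 (SE 0.11) and -0.42 (SE 0.12), or -0.41 and -0.47 without sham replicate 1. The unnamed locus Gm19439, which GENCODE lists as a TEC transcript, and the transcribed pseudogene Gm34583 had log2 fold changes of -1.09 (SE 0.27) and -0.88 (SE 0.22), or -0.94 and -0.75 without sham replicate 1. Sham replicate 5 was the highest library for Ky, Anxa11, Mical2, Rrp8, Zbtb40 and Gm19439. Burn libraries of the same fit, which share the sham controls, lay at 5.12 to 10.0 CPM for Ky, 67.5 to 84.7 CPM for Anxa11 and 494 to 572 CPM for Mical2. For the genes of smallest p, Col6a4 to Gm34583, the adjusted p was 0.915 with all libraries and 0.855 without sham replicate 1 in edgeR, except Mycl at 0.945 with all libraries.

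**Figure D2:**
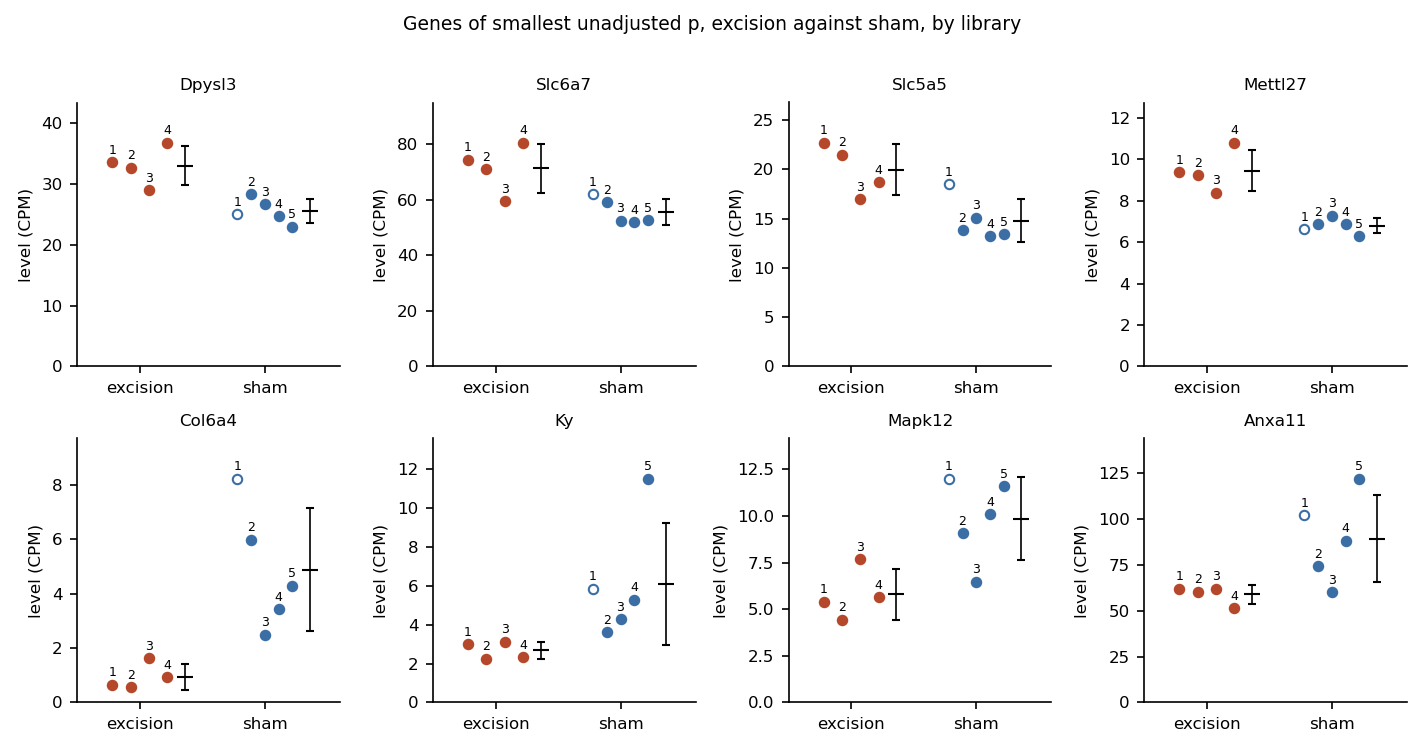
CPM of 8 genes among those of smallest unadjusted p with a mean of at least 1 CPM, in the 4 excision and 5 sham libraries, with replicate numbers, sham replicate 1 as an open circle, and the mean and SD beside each group. Dpysl3, Mettl27, Col6a4 and Ky have groups that do not overlap, and sham replicate 5 is the highest sham library for Ky (11.5 CPM) and Anxa11 (122 CPM).

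Immediate early genes, which neurons switch on within minutes of activity, mostly lay higher in excision. Of 17 tested, 15 were higher and 2 lower, with a median log2 fold change of 0.38 beside -0.0195 for all genes. None was called, and 8 were higher at an unadjusted p under 0.05, beside 2.23% of all genes. Without sham replicate 1, 14 were higher, the median was 0.47 and 7 had an unadjusted p under 0.05, beside 2.74% of all genes.

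Fos, the AP-1 transcription factor most used as a marker of neuronal activity, had 66.2, 47.6, 29.6 and 26.1 CPM in excision, against 19.9, 29.4, 26.8, 29.8 and 10.3 CPM in sham. Excision replicates 1 and 2 were above every sham library and replicates 3 and 4 were within their range. The log2 fold change was 0.87 (SE 0.28), with an adjusted p of 0.915 in edgeR, and 0.82 (SE 0.30) without sham replicate 1. Btg2, an antiproliferative early-response gene, had 41.5, 26.0, 11.1 and 15.8 CPM in excision, against 13.4, 14.6, 11.4, 12.1 and 6.54 CPM in sham. Junb, a further AP-1 subunit, had 195, 142, 84.6 and 77.0 CPM in excision, against 80.3, 88.8, 92.8, 47.5 and 38.0 CPM in sham. The same 2 excision libraries led for both genes. Npas4, a transcription factor induced by calcium entry, had a log2 fold change of 0.60 (SE 0.23), and Dusp1, a phosphatase of MAP kinases, one of 0.57 (SE 0.19).

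The spread between libraries was wide for this list. Its summed level was 2563, 2004, 2050 and 1392 CPM in excision, against 1403, 1962, 1964, 1970 and 1301 CPM in sham. Without excision replicate 1 the number at an unadjusted p under 0.05 was 1, with 13 of 17 higher, and without excision replicate 2 it was 5. With 2 surrogate variables in the design it was 2, with 14 of 17 higher and a median of 0.26. Of all genes, 3.98%, 3.32% and 5.08% had an unadjusted p under 0.05 in either direction in these runs, in that order. Excision replicates 1 and 2 led for Fos, Btg2 and Junb, so that leaving either out favours a lower count by that choice. The count was 10 without excision replicate 4 and 9 without sham replicates 2 or 3, beside 3.45%, 6.71% and 8.13% of all genes. It was 6 or 7 without any other single library. Arc, a synaptic effector, had a log2 fold change of 0.07 (SE 0.24), Egr1 of 0.23 (SE 0.20) and Homer1 of -0.08 (SE 0.17), and without sham replicate 1 these were -0.01, 0.13 and -0.20. In the other regions the excision effect on Fos was -0.35 in the frontal cortex and -0.23 in the hippocampus, and its difference between regions was not called.

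**Figure D3:**
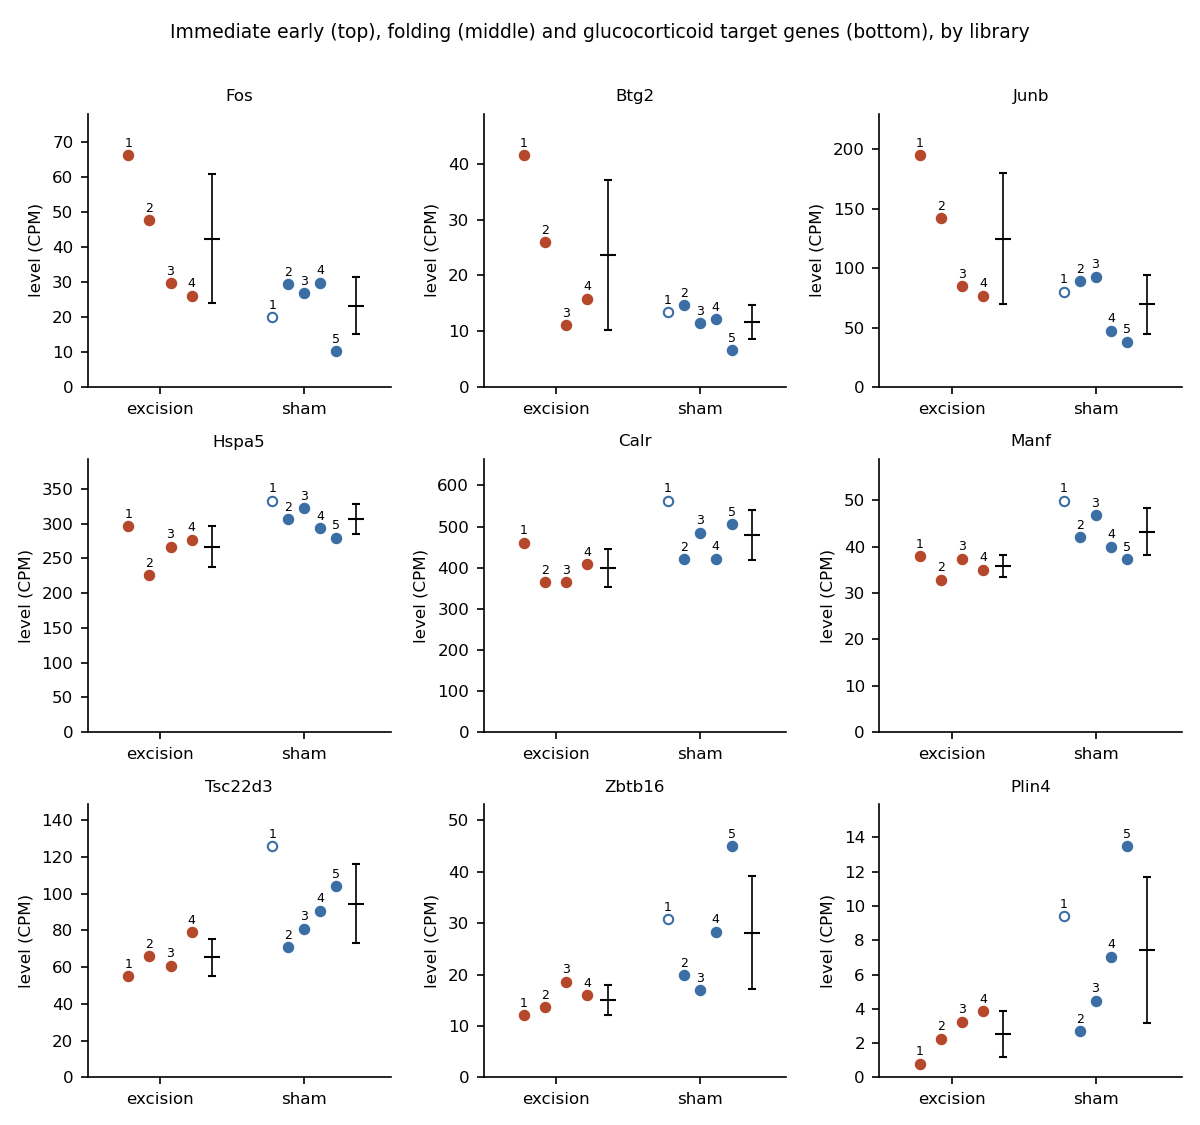
CPM of 3 immediate early genes, 3 folding genes and 3 glucocorticoid target genes in the 4 excision and 5 sham libraries, with replicate numbers, sham replicate 1 as an open circle, and the mean and SD beside each group. The groups overlap for all 9 genes, and excision replicates 1 and 2 are the highest libraries for Fos (66.2 and 47.6 CPM), Btg2 (41.5 and 26.0 CPM) and Junb (195 and 142 CPM).

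Folding genes of the endoplasmic reticulum lay slightly lower in excision. Chaperones of this compartment fold secreted and membrane proteins, and their transcripts are induced when unfolded protein builds up. Of 20 tested, 2 were higher and 18 lower in both fits, with a median log2 fold change of -0.19, or -0.16 without sham replicate 1. None was called, and 6 were lower at an unadjusted p under 0.05 (3.01% of all genes), or 3 without sham replicate 1 (3.06% of all genes). The count was 0 without excision replicate 2, 1 without excision replicate 4, and 3 without excision replicate 3 or sham replicate 5. It was 10 without excision replicate 1. Of all genes, 3.32%, 3.45%, 8.15%, 3.94% and 3.98% had an unadjusted p under 0.05 in either direction in these runs, in that order. The summed level of the list was 2302, 1963, 2019 and 2120 CPM in excision, against 2510, 2230, 2369, 2269 and 2287 CPM in sham.

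Hspa5, the Hsp70 chaperone BiP of the endoplasmic reticulum, had 296, 226, 267 and 277 CPM in excision, against 333, 306, 322, 293 and 280 CPM in sham. Its log2 fold change was -0.20 (SE 0.09) with all libraries and -0.17 (SE 0.10) without sham replicate 1. Calr, a calcium-binding lectin chaperone, had 461, 365, 364 and 409 CPM in excision, against 563, 420, 485, 422 and 506 CPM in sham, with a log2 fold change of -0.26 (SE 0.12), or -0.20 (SE 0.11) without sham replicate 1. Manf, a secreted cofactor of BiP, had 37.9, 32.9, 37.4 and 35.0 CPM in excision, against 49.9, 42.1, 46.8, 40.0 and 37.3 CPM in sham. The groups overlapped for each of these genes. Hsp90b1, the Hsp90 chaperone of the compartment, had a log2 fold change of -0.08 (SE 0.08), and Xbp1, whose spliced form drives chaperone transcription, one of -0.08 (SE 0.09). Excision effects on Hspa5 were 0.02 in the frontal cortex and -0.08 in the hippocampus. The list was drawn up with earlier results of these data known, and the share below 0 is a description.

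More of the glucocorticoid targets, which report circulating corticosterone in the brain, lay lower than higher in excision in both fits. Of 17 tested, 4 were higher and 13 lower, with a median of -0.19, or 6 and 11 with a median of -0.10 without sham replicate 1. At an unadjusted p under 0.05, 3 were lower (3.01% of all genes, 3.06% without sham replicate 1) and 1 higher (2.23% and 2.74% of all genes) in both fits, and none was called. The count of 3 was 6 without excision replicate 3, 5 without sham replicates 2 or 4, and 3 or 4 without any other library. Of all genes, 8.15%, 6.71% and 6.26% had an unadjusted p under 0.05 in either direction in the first of these runs. The share was 3.32% to 8.13% in the others. Tsc22d3, the anti-inflammatory mediator GILZ, had 55.2, 66.0, 60.9 and 79.1 CPM in excision, against 70.8, 81.0, 90.8 and 104 CPM in sham replicates 2 to 5, and sham replicate 1 lay above these. Only excision replicate 4 reached into the sham range, and the log2 fold change was -0.53 (SE 0.14), or -0.41 without sham replicate 1. Zbtb16, a transcription factor induced by glucocorticoids, had 12.1, 13.6, 18.6 and 16.0 CPM in excision, against 30.7, 19.9, 16.9, 28.3 and 45 CPM in sham.

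Plin4, a lipid droplet protein, had 0.794, 2.26, 3.25 and 3.87 CPM in excision, against 9.42, 2.68, 4.48, 7.04 and 13.5 CPM in sham, and lay at 9.12 to 29.2 CPM in burn libraries. Fkbp5, a cochaperone that restrains the glucocorticoid receptor, had 30.3, 25.1, 26.5 and 31.7 CPM in excision, against 57.0, 24.6, 38.1, 28.2 and 38.4 CPM in sham. The 3 sham libraries at 38.1 CPM or more were above all excision libraries and the other 2 were not, with a log2 fold change of -0.39 (SE 0.20), or -0.19 (SE 0.16) without sham replicate 1. Per1, a clock gene that glucocorticoids induce, had a log2 fold change of 0.02 (SE 0.10). The 1 member higher at an unadjusted p under 0.05 was Dusp1, which the list shares with the immediate early genes, and which missed that threshold without excision replicate 1.

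Endothelial and blood-brain barrier genes lay lower in excision with all libraries, and 2 high sham libraries bore on that direction. All 17 tested were lower with all libraries, with a median of -0.33 and 6 at an unadjusted p under 0.05 (3.01% of all genes). Without sham replicate 1, 14 were lower, with a median of -0.17 and 2 at that threshold (3.06% of all genes). Without sham replicates 1 and 5, 11 were higher and 6 lower, with a median of 0.07. The summed list was highest in these 2 libraries (253 and 243 CPM), so that leaving both out favours higher fold changes by that choice. No gene of the list was called in either fit. The count of 6 was 3 without excision replicates 1 or 2 or sham replicate 5. In these runs 3.98%, 3.32% and 3.94% of all genes had an unadjusted p under 0.05 in either direction. The count was 8 without sham replicate 2, 7 without sham replicate 4 and 6 without sham replicate 3. It was 5 without excision replicate 4 and 4 without excision replicate 3. The shares of all genes in these further runs were 6.71%, 6.26%, 8.13%, 3.45% and 8.15%, in that order. Esam, an adhesion molecule of endothelial junctions, had 7.00, 8.24, 8.88 and 6.99 CPM in excision, against 12.2, 8.85, 8.68, 11.3 and 13.5 CPM in sham. Slc2a1, the glucose transporter of the barrier, had 47.7, 46.9, 46.8 and 51.0 CPM in excision, against 73.9, 44.3, 56.9, 53.0 and 79.9 CPM in sham. Sham replicates 1 and 5 were the highest libraries for both genes. Cldn5, the tight junction protein of the barrier, had a log2 fold change of -0.14 (SE 0.22) with all libraries and 0.13 (SE 0.16) without sham replicate 1, so that its direction depended on that library. With 2 surrogate variables in the design, 8 of the 17 were higher and 9 lower, or 10 and 7 without sham replicate 1.

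Myelin genes lay lower in excision in both fits, but not with surrogate variables once sham replicate 1 was left out. All 15 tested were lower, with a median log2 fold change of -0.43, or -0.28 without sham replicate 1. With 2 surrogate variables all 15 were again lower with a median of -0.21, but without sham replicate 1 that design gave 7 higher and 8 lower with a median of -0.02. None was called, and 3 had an unadjusted p under 0.05 with all libraries (3.01% of all genes lower) and 0 without sham replicate 1 (3.06%). That count was 11 without excision replicate 3, 9 without sham replicate 2, 7 without sham replicate 4, and 1 without excision replicates 2 or 4. Of all genes, 8.15%, 6.71%, 6.26%, 3.32% and 3.45% had an unadjusted p under 0.05 in either direction in these runs, in that order. Mbp, a main protein of compact myelin, had 1140, 699, 1200 and 773 CPM in excision, against 2800, 888, 2190, 1270 and 1150 CPM in sham. Its log2 fold change was -0.80 (SE 0.29) with all libraries and -0.53 (SE 0.25) without sham replicate 1. Excision replicates 1 and 3 and sham replicate 3, high for striatal markers, were also high for Mbp within their groups once sham replicate 1 was set aside. Sham replicate 1 itself had the highest summed level of the myelin list (6551 CPM) and the lowest of the striatal markers (259 CPM). The part of these markers in the difference was not tested.

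Glial and immune markers of injury showed no common direction with all libraries. Without sham replicate 1, Gfap, Aif1, C4b and most reactive astrocyte and interferon-response genes lay higher in excision. Most cytokine and NF-kB genes tested lay lower in both fits. Gfap, the astrocyte filament that rises with injury, had 167, 148, 64.6 and 169 CPM in excision, against 287, 95.2, 194, 101 and 58.6 CPM in sham. Values overlapped over the whole range, and the log2 fold change was -0.10 (95% interval -0.93 to 0.73), or 0.29 (-0.45 to 1.03) without sham replicate 1. Aif1, the microglial marker IBA1, had 7.02, 6.24, 5.09 and 7.15 CPM in excision, against 8.78, 6.34, 6.55, 5.33 and 5.39 CPM in sham, and its 95% interval of -0.37 to 0.33 lay within 1.5-fold in either direction. Microglial genes as a list were balanced, with 7 of 16 higher and a median of -0.01, or 11 of 16 and 0.01 without sham replicate 1.

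Complement C4b, an innate immune gene that rises with age and injury in the brain, had 35.9, 18.0, 17.1 and 23.2 CPM in excision, against 44.9, 10.6, 30.7, 9.44 and 9.74 CPM in sham. Its log2 fold change was 0.16 (95% interval -0.78 to 1.10), and 0.64 (-0.20 to 1.48) without sham replicate 1, so that a 2-fold increase lay inside both intervals. Reactive astrocyte genes were divided with all libraries, with 8 of 15 higher and a median of 0.02, or 13 of 15 and 0.13 without sham replicate 1. Cd44, named after its values were seen, had the largest log2 fold change of that list with all libraries. This hyaluronan receptor had 2.02, 3.09, 2.60 and 4.04 CPM in excision, against 1.95, 1.93, 2.59, 1.45 and 1.13 CPM in sham, with a log2 fold change of 0.69 (SE 0.23), or 0.72 (SE 0.24) without sham replicate 1. Among 20 interferon-response genes 13 were higher with a median of 0.08, or 15 with a median of 0.32 without sham replicate 1. In that last fit 2 reactive astrocyte and 2 interferon-response genes were higher at an unadjusted p under 0.05 (2.74% of all genes). In the same fit 0 of either list were lower at that threshold (3.06% of all genes), and none was called. Of 20 cytokine and NF-kB genes 15 passed the count filter, and 5 of these were higher, or 6 without sham replicate 1. Bdnf, a neurotrophin, had a log2 fold change of 0.02 (95% interval -0.27 to 0.31), or 0.09 (-0.20 to 0.37) without sham replicate 1.

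**Figure D4:**
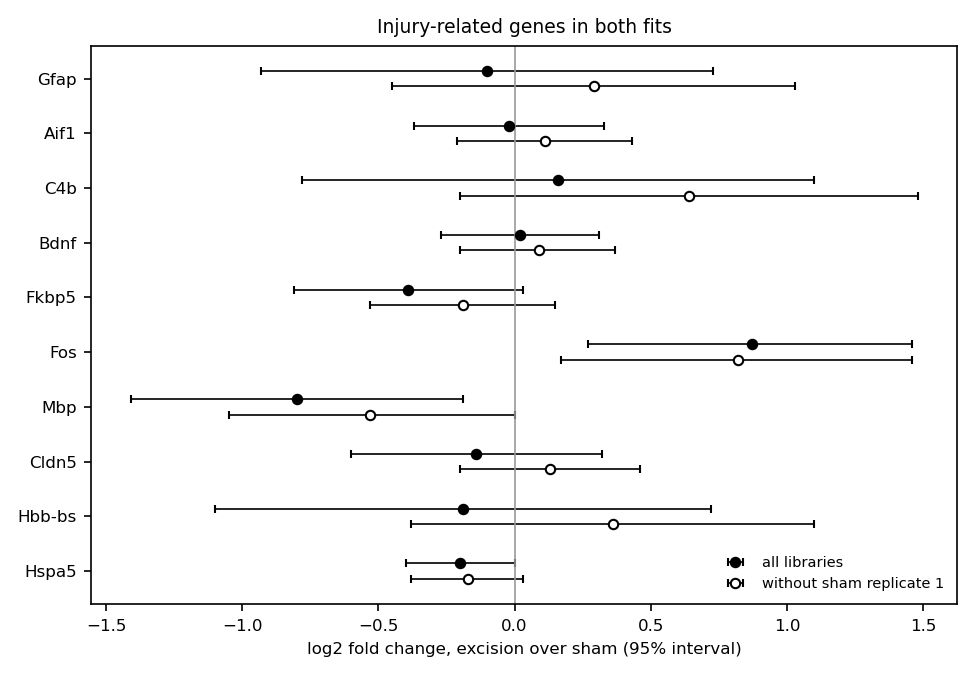
Log2 fold change of excision over sham with its 95% interval for 10 genes, with filled points for all libraries and open points without sham replicate 1. Intervals for Fos (0.27 to 1.46 with all libraries) and Bdnf (-0.27 to 0.31) differ in place and width, and Gfap, Aif1, Cldn5 and Hbb-bs change sign between the fits.

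Lists for other tissues showed how far single libraries set the direction. Choroid plexus genes had 10 of 14 lower and a median of -0.36 with all libraries, but 11 of 13 higher and a median of 0.76 without sham replicate 1. Ttr, the transthyretin that choroid plexus secretes, had 3.64, 1.99, 15.2 and 43.3 CPM in excision, against 186, 1.96, 2.96, 0.818 and 7.69 CPM in sham. Hbb-bs, a globin of residual blood, had 247, 139, 70.8 and 124 CPM in excision, against 376, 75.6, 108, 188 and 82.5 CPM in sham. Sham replicate 1 was the highest library for both genes. Meningeal and fibroblast genes had 9 of 13 higher with a median of 0.32, and 13 of 13 with a median of 0.76 without sham replicate 1. Dcn, a matrix proteoglycan of fibroblasts, ran from 2.70 to 24.7 CPM in excision and from 1.67 to 8.57 CPM in sham.

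Ribosomal protein genes had a median of -0.05 with 2 of 28 higher, and of 0.04 with 23 of 28 higher without sham replicate 1. Nuclear genes of oxidative phosphorylation had medians of 0.00 and 0.04 over 24 genes in these fits. Among genes of cholesterol synthesis 14 of 17 were higher in both fits, with medians of 0.14 and 0.15, and Sqle, squalene epoxidase, had 59.5, 57.9, 45.7 and 68.6 CPM in excision, against 47.9, 54.6, 45.7, 46.7 and 47.0 CPM in sham.

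Mitochondrially encoded transcripts made up 6.12, 6.29, 6.77 and 8.05% of counts in excision, against 10.4, 8.45, 8.40, 8.68 and 3.47% in sham. The means were 6.81 ± 0.87% (SD, n = 4) in excision and 7.89 ± 2.61% (SD, n = 5) in sham, a difference of -1.08 points that did not pass an exact two-sided permutation test (p = 0.524, smallest possible p 0.0159). Sham replicate 5 was the lowest of all libraries and the other 4 sham libraries were the highest. Without it the difference was -2.19 points, and since the groups then separate by that choice no p is read from it. All 13 mitochondrial messenger RNAs tested were lower, with a median log2 fold change of -0.27, or 11 of 13 and -0.13 without sham replicate 1. Of these, 0 had an unadjusted p under 0.05 in either fit. Without sham replicate 5 the median was -0.46, and again no p is read from that choice. Nuclear long noncoding RNAs, which include Malat1, Neat1 and Meg3, were lower for 8 of 8 genes with a median of -0.38, or for 7 of 8 with a median of -0.37 without sham replicate 1. With 2 surrogate variables 4 were higher and 4 lower in both fits, with medians of 0.01 and -0.02. Malat1, a nuclear speckle RNA, had 206, 219, 319 and 297 CPM in excision, against 339, 390, 223, 378 and 417 CPM in sham.

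**Figure D5:**
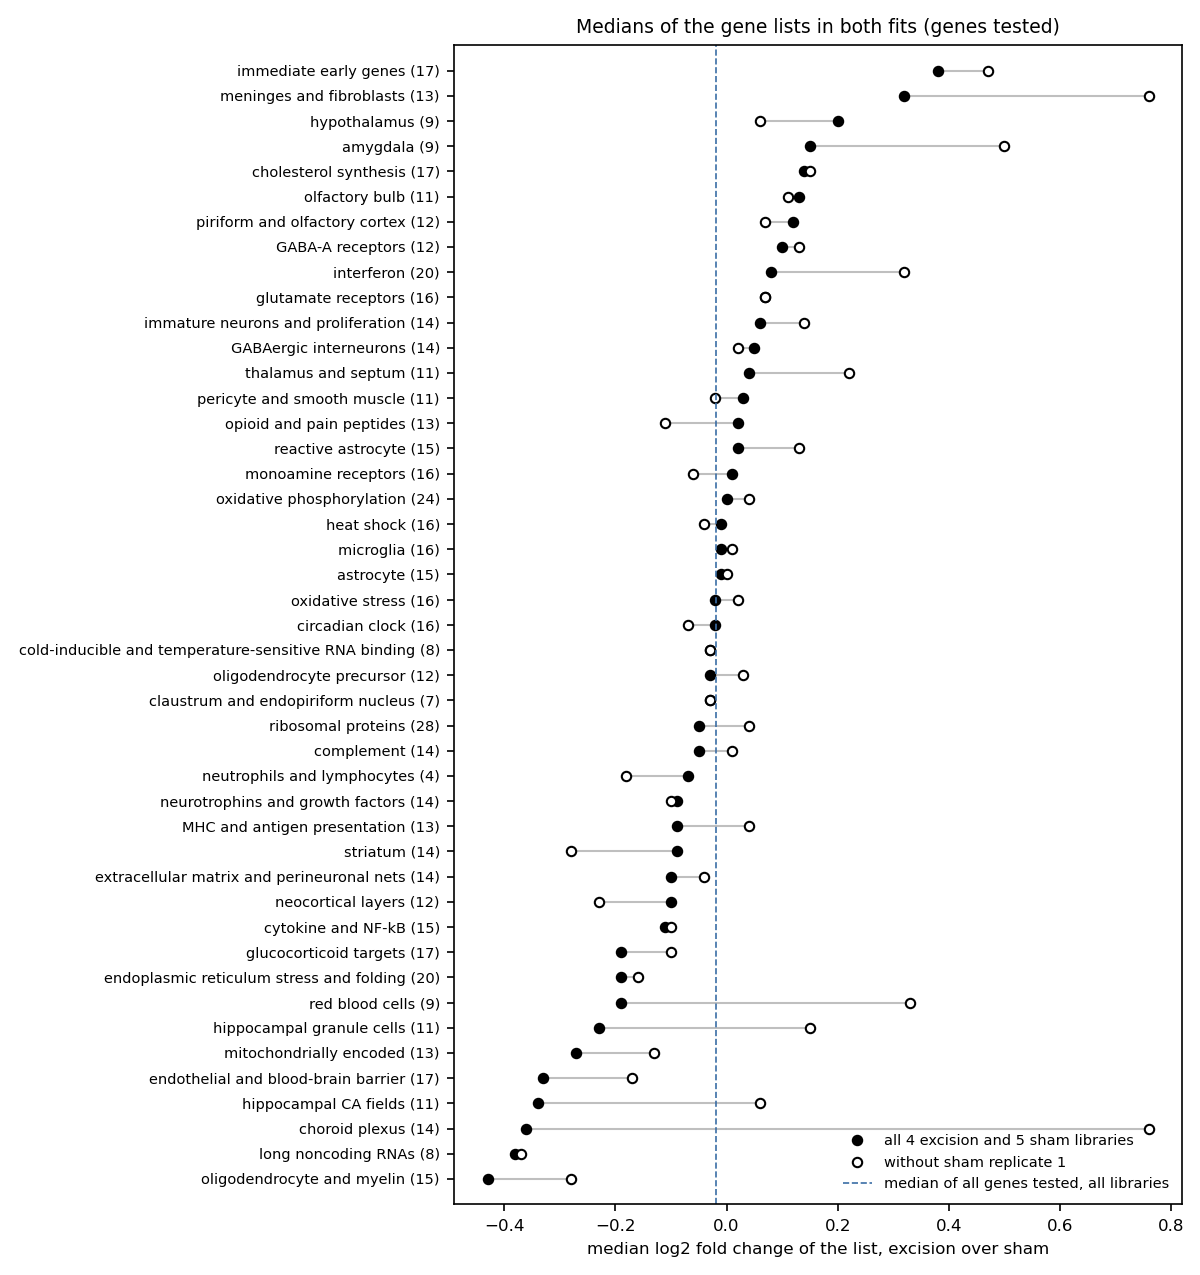
Median log2 fold change of excision over sham for each of 45 gene lists, with the number of genes tested in brackets, filled points for all libraries and open points without sham replicate 1. Immediate early genes lie at 0.38 and 0.47, myelin genes at -0.43 and -0.28, and the choroid plexus list moves between -0.36 and 0.76.

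Whether excision acted differently in the piriform cortex than elsewhere was tested against 10 excision and 8 sham libraries of the frontal cortex, and 10 excision and 9 sham libraries of the hippocampus. The difference between excision effects was called for 0 of 22749 genes against the frontal cortex (0%) and 0 of 21574 against the hippocampus (0%) in edgeR. The smallest adjusted p-values were 0.965 and 0.229. An unadjusted p under 0.05 was reached by 1125 genes (4.95%) and 1182 genes (5.48%). Without piriform sham replicate 1 the counts called were again 0 of 22730 and 0 of 21515, with 1162 and 1473 genes at an unadjusted p under 0.05. Region and the batch named in the labels cannot be told apart in these differences. Groups again followed the treatment label, though the title of a frontal excision library names burn. Titles of some frontal burn libraries in the same fit name sham. Among the named genes, Mettl27 had an excision effect of 0.48 (SE 0.12) in the piriform cortex and 0.45 (SE 0.11) in the frontal cortex, Slc5a5 of 0.43 (SE 0.12) and 0.41 (SE 0.11), and Slc6a7 of 0.36 (SE 0.09) and 0.29 (SE 0.09). Their effects in the hippocampus were -0.04, 0.00 and -0.11. Their frontal effects were not called in edgeR (adjusted p 0.644, 0.698 and 0.732). Col6a4, at -2.36 (SE 0.46) in the piriform cortex, had 0.44 (SE 0.35) in the frontal cortex and -0.08 in the hippocampus. Apart from Rrp8 (-0.06), the other genes of smallest p also had the opposite sign in the frontal cortex, such as Dpysl3 (-0.14) and Mapk12 (0.21).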

How the data were processed

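The authors deposited raw counts per gene and library, in 1 table of 71 libraries and 55416 Ensembl identifiers. Libraries were single-end runs of 100 bp, per the labels' protocols. FastQC 0.11.3, fastp, STAR, DESeq2 1.24.0 and GRCm38 are named in the submitters' processing notes. The counting program is not given in the sources used here, nor are the annotation release and strand mode, so reads of overlapping, antisense or near-identical genes may be shared. Symbols and positions came from GENCODE M21, which matched 52083 identifiers; unmatched ones held 0.837% of the piriform counts.

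The 14 piriform libraries were fitted together with edgeR 4.0.16 under R 4.3.3 (TMM, filterByExpr, quasi-likelihood F test), with groups from the treatment label and no covariate, and called at a Benjamini-Hochberg adjusted p under 0.05 over all genes tested. SE was the unshrunk log2 fold change over the root of F. Region differences had batch within region as a term. CPM used normalised library sizes. The 16 pairs of libraries within groups held 0 identical pairs, with a chi-square per degree of freedom of at least 20.1, so none was counted as a repeat.

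As each fit called fewer than 5 genes, the 10 genes of smallest p with a mean of at least 1 CPM were named from each fit. A further 11 genes were read whatever their values. Other list members given singly, such as Btg2, Esam, Adrb1 and Reln, fall outside these rules and stand only as examples. Members of the 45 gene lists, and the comparison itself, were chosen with earlier results of these data known; lists are described by counts and medians without a test. Alternatives were DESeq2 1.42.0, its size factors, no count filter, fewer libraries, sva 3.50.0 surrogate variables, a replicate block and treatment from titles. Counts of list members with libraries left out, and Pth2r, were added after seeing the data. Scripts were tested on simulated data.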

Additional observations from a re-analysis of the deposited data

Results flagged for a closer look

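In 106 groups of 4 or 5 libraries examined by Dixon's criterion, 15 held a library far from the others, and chance alone marks about 1 in 20. Sham replicate 1 was the distant library for 8 of them. It was highest for the summed CPM of hippocampal granule cell markers (581, next 274), CA field markers (682, next 494), choroid plexus markers (417, next 225) and red blood cell genes (1763, next 833), and for Ttr (186 CPM, next 7.69), Mycl (18.2 CPM, next 8.80), Hfm1 (1.33 CPM, next 0.837) and Cldn5 (18.6 CPM, next 10.4). Mycl and Hfm1 were named only from the fit without sham replicate 1, which favours genes in which that library stands apart. Since genes and lists were chosen on these data, 15 of 106 beside 1 in 20 is a description and not a test. Sham replicate 3 was highest for striatal markers (2371 CPM, next 337) and amygdala markers (300 CPM, next 153). Sham replicate 5 was highest for Ky (11.5 CPM, next 5.85) and lowest for the mitochondrial share (3.47%, next 8.40%).

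Among excision libraries, Anxa11 had its lowest value in replicate 4 (51.5 CPM, next 60.5). The lowest summed level of oligodendrocyte precursor genes was 340 CPM in replicate 2 (next 406), and that of GABAergic interneuron genes was 1275 CPM in replicate 4 (next 1470).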

How the results depend on the processing

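The count of 0 genes called for excision against sham held under each alternative run except DESeq2, which called 2 genes with all libraries and 1 without sham replicate 1. Genes at an unadjusted p under 0.05 ran from 711 (without excision replicate 2) to 1749 (without excision replicate 3) when libraries were left out in turn, with 740 without excision replicate 4 and 1706 without sham replicate 3. Without sham replicate 1 they ran from 750 to 2499, with 2499 on also leaving out sham replicate 3 and 2126 excision replicate 3. Fitting only excision and sham libraries gave 684 of 20133 genes (3.40%). Leaving out single libraries gave 0 to 1 gene called for the difference from the hippocampus, the 1 being Clic5 without excision replicate 3 (adjusted p 0.0208 in edgeR). For the mitochondrial share it gave -2.19 to -0.443 points. Title numbers did not pair the libraries (same-number correlations of -0.0695, 0.0793 and -0.103). The replicate block on them, which also left out sham replicate 2, gave 0 calls and 1498 genes at an unadjusted p under 0.05, and 1422 without sham replicate 1. Leaving out sham replicate 2 with no block gave 1397 and 1416. Across 28 named genes and 16 settings, 420 of 447 log2 fold changes kept direction and side of the threshold, 2 passed it in DESeq2 (Col6a4 at -2.35, Pth2r at 1.34) and 25, from 7 genes, changed sign; the cause was not tested. Gfap (-0.10) was 0.06 with the block and ran from -0.29 to 0.29 with libraries left out, above 0 without sham replicates 1 (0.29) or 3 (0.02) or excision replicate 3 (0.14). Aif1 (-0.02) was 0.01 with 2 surrogate variables and ran from -0.09 to 0.11 with libraries left out. C4b (0.16) was -0.18 with treatment from titles and ran from -0.12 to 0.64 with libraries left out. Bdnf (0.02) was -0.06 with surrogate variables and ran from -0.08 to 0.09 with libraries left out. Cldn5 (-0.14) was 0.13 with surrogate variables and ran from -0.27 to 0.13, the highest without sham replicate 1. Ttr (-1.31) was 1.63 with the block, 2.85 with surrogate variables and ran from -2.52 to 2.27, the highest without sham replicate 1. Hbb-bs (-0.19) was 0.03 with surrogate variables and ran from -0.57 to 0.36, the highest without sham replicate 1. The shares of bounded intervals cover genes of at least 1 CPM, and the effect of depth on lower genes was not tested.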

Other observations

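Receptors of noradrenaline and serotonin, and genes of olfactory cortical neurons, held values not described above. Adrb1, the beta-1 adrenergic receptor, had 47.1, 47.7, 35.3 and 32.1 CPM in excision, against 20.2, 37.2, 31.5, 29.3 and 28.5 CPM in sham, with a log2 fold change of 0.47 (SE 0.15), or 0.36 (SE 0.13) without sham replicate 1. Htr7, a serotonin receptor coupled to adenylyl cyclase, had 10.3, 11.6, 7.89 and 10.5 CPM in excision, against 6.58, 8.63, 7.91, 6.97 and 6.78 CPM in sham. In each, 1 or 2 excision libraries lay inside the sham range, and neither gene was called. Over 16 monoamine receptor genes 9 were higher, with a median of 0.01, or 7 of 15 with a median of -0.06 without sham replicate 1. With all libraries their log2 fold changes ran from -1.90 to 0.66. At an unadjusted p under 0.05, 3 were higher (2.23% of all genes) and 1 lower (3.01% of all genes).

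Reln, the extracellular matrix protein reelin of superficial cortical neurons, had 63.0, 80.1, 41.6 and 70.2 CPM in excision, against 33.5, 45.5, 61.9, 42.7 and 35.8 CPM in sham, with a log2 fold change of 0.54 (SE 0.19), or 0.46 (SE 0.19) without sham replicate 1. Lhx2, a cortical patterning factor, had 84.3, 87.1, 76.0 and 84.8 CPM in excision, against 61.5, 83.8, 76.3, 61.1 and 48.0 CPM in sham. Of the 12 piriform and olfactory cortex genes 7 were higher, with a median of 0.12, or 9 with a median of 0.07 without sham replicate 1. Dcx, a microtubule protein of immature neurons that the adult piriform cortex is known to hold, had a log2 fold change of 0.37 (SE 0.17), or 0.29 (SE 0.17) without sham replicate 1, and was not called. Of 16 clock genes 7 were higher with a median of -0.02, and 3 with a median of -0.07 without sham replicate 1, where 3 were lower at an unadjusted p under 0.05 (3.06% of all genes) and none was called.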
